A study of Mus musculus with 12 samples.

Results

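The complement genes described here are 9 of the 38215 genes of the series' count table, chosen by symbol. They are the central component C3, the alternative pathway proteins Cfb (factor B) and Cfp (properdin), the 3 chains of C1q (C1qa, C1qb, C1qc), the anaphylatoxin receptors C3ar1 and C5ar1, and the C1 inhibitor Serping1. They were measured in RAW264.7 cells, an established mouse macrophage line of strain BALB/c, which received nontargeting control siRNA or siRNA against SF3A1, a protein of the U2 snRNP that takes part in the recognition of the branch point of introns. After 24 hours the cells were given 20 ng/ml LPS, a glycolipid of the outer membrane of Gram-negative bacteria and the ligand of TLR4, for 4 hours, or no LPS. All 12 libraries therefore come from cells that were nucleofected with an siRNA, and from a single cell line. Each of the 4 groups had 3 libraries of polyadenylated RNA, and replicate 1 of each group was sequenced in 2 runs where replicates 2 and 3 had 1. The study's methods describe treatments and exposures made in triplicate and do not say whether these fell on separate days, so p-values measure only the spread between these samples, which may be technical.

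Complement is a cascade of plasma proteins that marks microbes and dying cells for uptake, recruits leukocytes and can lyse membranes. C1q starts the classical pathway by binding to antibody or to surfaces, and the alternative pathway runs through a convertase made of C3b and a fragment of factor B, which properdin holds together on a surface. Cleavage of C3 and C5 releases the anaphylatoxins C3a and C5a, which act on leukocytes through C3ar1 and C5ar1. Most circulating complement is made by the liver, but macrophages make C1q, properdin, C3 and factor B themselves, and LPS is known to raise C3 and factor B in them.

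The libraries held between 12746019 and 41091887 reads assigned to genes, with 27789833 to 41091887 in the replicate 1 libraries and 12746019 to 21830520 in the others. Levels are given as CPM, counts per 1000000 counts of the library, after TMM scaling, an adjustment of the library sizes for RNA composition. In the absence of LPS the targeted gene Sf3a1 averaged 191 ± 22.2 CPM (SD, n = 3) with control siRNA and 28.9 ± 2.78 with SF3A1 siRNA, and in its presence 167 ± 23.9 and 34.0 ± 9.72. Of 12 macrophage markers, 10 or 11 averaged at least 1 CPM in each group, among them Csf1r, Adgre1, Cd68 and Lyz2. Of 16 markers of T cells, B cells, neutrophils, fibroblasts and hepatocytes, 0 averaged 1 CPM in any group, and their levels summed to between 0.170 and 1.93 CPM per library. The hepatocyte marker Alb had 0 counts in each of the 12 libraries. In each comparison a gene is said to have passed the test, and to have risen or fallen, at an adjusted p of 0.1 or less over all 14983 genes tested, by the quasi-likelihood test of edgeR, adjusted by the Benjamini-Hochberg method. Of the 9 complement genes, 8 had enough counts to be tested, and Serping1 did not. In such bulk RNA, fewer cells that express a gene and less RNA per cell cannot be told apart.

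The complement genes differed widely in level. In cells with control siRNA and no LPS, Cfp stood at 68.7 ± 13.5 CPM per kilobase of exon (SD, n = 3), C5ar1 at 17.7 ± 3.59 and C3ar1 at 4.35 ± 0.166. On the same scale C3 was at 0.463 ± 0.0744, and the C1q chains were at 0.589 ± 0.0722 for C1qa, 0.681 ± 0.451 for C1qb and 0.417 ± 0.258 for C1qc. By gene counts Cfb, with 1 count in the 3 libraries together, and Serping1, with 2 counts, were near the limit of detection. The gene counts of Cfb leave out part of its reads, as described below. On exon bin counts it stood at 0.962 to 1.11 CPM in these libraries, not scaled per kilobase. The receptors and properdin were thus the complement genes that the resting cells held at high level, and C3 and factor B were low before LPS.

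The promoters of C3, Cfp and C3ar1 are shown because these 3 genes rose with LPS under control siRNA and had smaller LPS changes under SF3A1 siRNA, as described next. The sequences come from RefSeq on GRCm38.p6, which has promoter entries for 6 of the 9 genes: C3, Cfp, C1qb, C1qc, C3ar1 and C5ar1. Each run is the minus strand, 5′ to 3′. Positions are counted from the RefSeq start, and the runs of C3 and Cfp end at the base before it, while that of C3ar1 ends 4 bases short of that. Capitals mark matches, on either strand, to letters of factors known to act in macrophages.
C3, chr17:57228137-57228386: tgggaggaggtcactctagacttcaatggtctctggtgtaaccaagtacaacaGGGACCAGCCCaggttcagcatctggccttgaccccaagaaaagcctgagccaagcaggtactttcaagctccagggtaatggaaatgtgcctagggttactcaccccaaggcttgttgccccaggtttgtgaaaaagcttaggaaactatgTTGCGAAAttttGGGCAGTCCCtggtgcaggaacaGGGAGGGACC
C3ar1, chr6:122856162-122856407: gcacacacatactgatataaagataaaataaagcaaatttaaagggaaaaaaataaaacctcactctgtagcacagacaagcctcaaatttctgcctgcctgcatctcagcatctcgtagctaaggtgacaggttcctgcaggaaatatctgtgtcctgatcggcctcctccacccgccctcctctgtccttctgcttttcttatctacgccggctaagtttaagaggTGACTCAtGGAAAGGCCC
Cfp, chrX:20931556-20931805: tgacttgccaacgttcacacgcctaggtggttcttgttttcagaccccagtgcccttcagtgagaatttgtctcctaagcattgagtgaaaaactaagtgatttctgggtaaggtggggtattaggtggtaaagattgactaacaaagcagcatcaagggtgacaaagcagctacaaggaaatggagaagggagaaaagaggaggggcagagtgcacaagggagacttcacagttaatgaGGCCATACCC

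The letters searched on both strands were TGANTCA for AP-1, TTGCNNAA for C/EBP, GAGGAA for PU.1 and TTCNNNGAA for gamma-activated sites. The core of interferon response elements and a loose pattern for NF-κB were also searched. In the NF-κB pattern only the outer G and C bases were fixed, with any base allowed between them. It is looser than the NF-κB consensus, and a match need not fit that consensus. In C3 the NF-κB letters began at positions -197, -33 and -10 from the start, and the C/EBP letters at -45. In C3ar1 the AP-1 letters began at -22 and the NF-κB letters at -14. In Cfp the NF-κB letters began at -10, and those of PU.1 began downstream of the start, at 7 and 23, outside the run printed. In C1qb, which did not rise with LPS under control siRNA, the NF-κB letters began at -191 and those of PU.1 at -30. In C1qc, which did not rise either, the NF-κB letters began at -41 and those of PU.1 at -193. The promoter of C5ar1, which did rise, matched none of the 6. The interferon and gamma-activated letters were in none of the 6 promoters. Of all 32851 promoters of the same length, 50.8% held the NF-κB letters, 7.81% those of AP-1, 10.8% those of C/EBP, 28.3% those of PU.1, 3.44% those of the interferon element and 8.30% those of the gamma-activated site. A match describes the letters only and is not a binding site.

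C3 is the gene of the protein on which the complement pathways meet, and it was low without LPS whichever siRNA had been given. It lies at chr17:57203970-57228136 on the minus strand of mm10. Without LPS and with control siRNA, its 3 libraries held 2.82, 2.19 and 2.13 CPM. With LPS and control siRNA they held 50.1, 24.5 and 37.1 CPM, each above every library of the other 3 groups. With SF3A1 siRNA they held 4.23, 1.84 and 2.90 CPM without LPS and 14.2, 5.92 and 10.4 CPM with LPS. The order of the group means was therefore control siRNA with LPS (37.2 ± 12.8, SD, n = 3), SF3A1 siRNA with LPS (10.2 ± 4.13), SF3A1 siRNA alone (2.99 ± 1.20) and control siRNA alone (2.38 ± 0.383), and the last 2 overlapped.

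LPS raised C3 with control siRNA by 3.96 on the log2 scale (SE 0.396, adjusted p = 1.06e-05), a 15.5-fold change. With SF3A1 siRNA the LPS change was 1.75 (SE 0.374, adjusted p = 0.0115), a 3.37-fold rise. In cells with LPS, SF3A1 siRNA lowered C3 by a log2 change of -1.87 (SE 0.358, adjusted p = 0.00186), so that its level was 27.3% of that with control siRNA. Without LPS the SF3A1 change was 0.34 (SE 0.381, adjusted p = 0.573) and did not pass the test. The difference between the LPS effects with SF3A1 and with control siRNA, tested as an interaction, was -2.20 (SE 0.520, adjusted p = 0.0502). With limma-voom its adjusted p was 0.104. It was between 0.105 and 0.129 on leaving out replicate 2 or 3 of control siRNA without LPS, replicate 1 or 3 of SF3A1 siRNA without LPS, or replicate 3 of SF3A1 siRNA with LPS, with differences of -2.23 to -1.84.

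**Figure D1:**
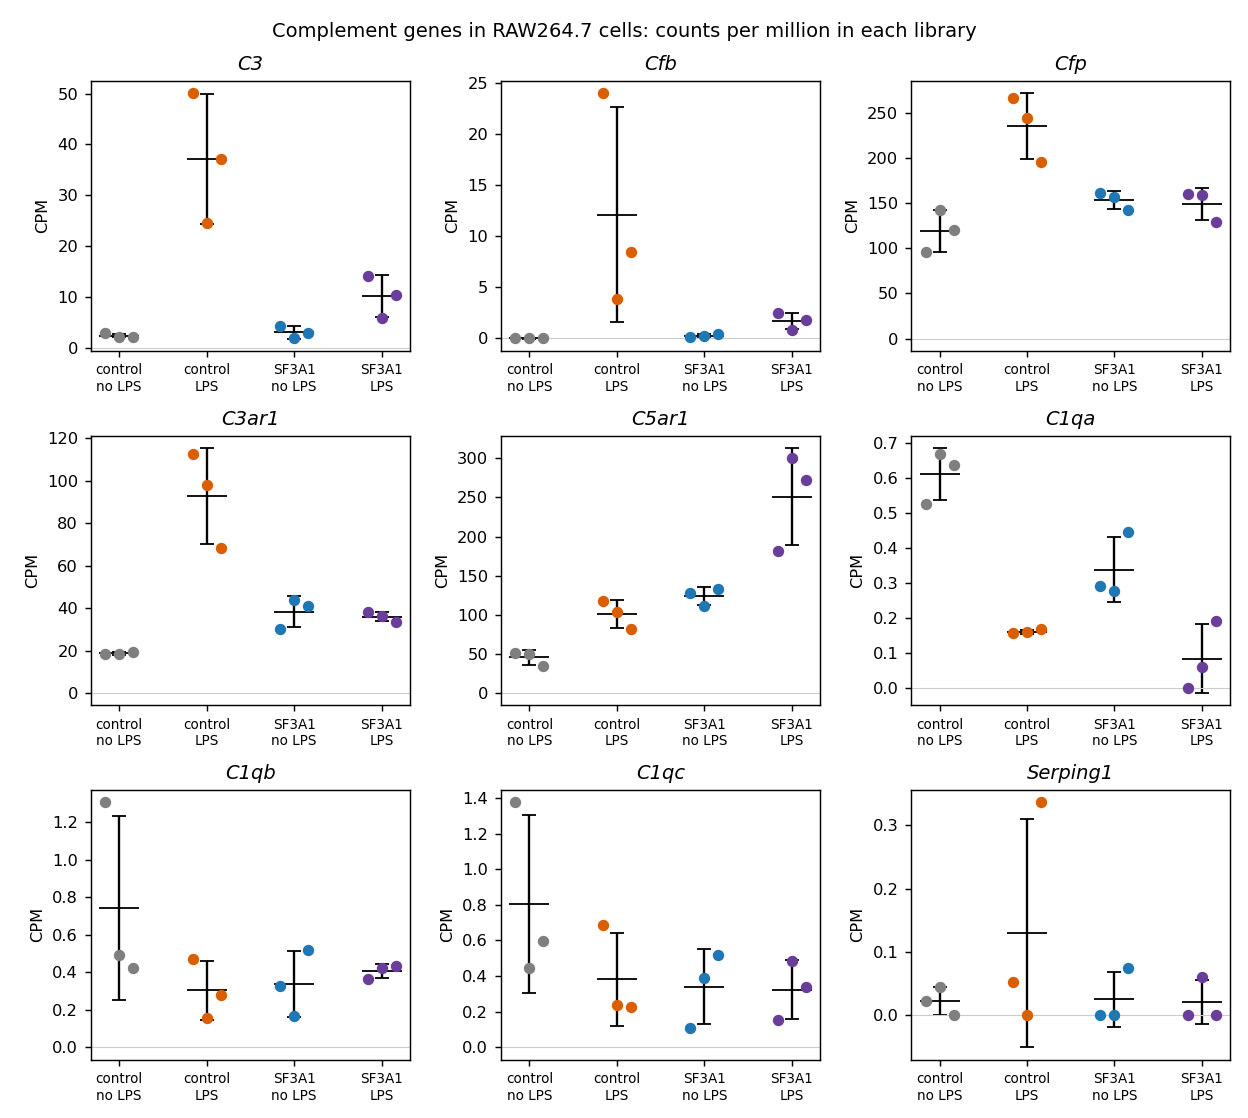
Level of each of the 9 complement genes in each library, in CPM on linear axes. Points are libraries, with replicates 1 to 3 from left to right in each group, and the horizontal bar and whiskers give the mean ± SD (n = 3). C3, Cfb, Cfp and C3ar1 were highest in the 3 libraries with control siRNA and LPS, C5ar1 in the 3 with SF3A1 siRNA and LPS, and the C1q chains reached at most 1.38 CPM.

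Factor B, the serine protease that supplies the catalytic part of the alternative pathway convertase, had the widest range of the 9 genes. Its gene counts were 0, 0 and 1 with control siRNA and no LPS, and 911, 49 and 151 with control siRNA and LPS. With SF3A1 siRNA they were 3, 4 and 6 without LPS and 81, 14 and 38 with LPS. Scaled for depth these were 0, 0 and 0.0426 CPM, 24.0, 3.89 and 8.47 CPM, 0.109, 0.223 and 0.446 CPM, and 2.45, 0.846 and 1.83 CPM. The 4 groups did not overlap in CPM, and the replicate 1 libraries were the highest of both groups with LPS. The group means were 0.0142 ± 0.0246, 12.1 ± 10.5, 0.260 ± 0.171 and 1.71 ± 0.810 CPM (SD, n = 3) in the same order.

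These counts hold only a part of the reads from Cfb. The gene lies at chr17:34856374-34862518 (mm10, minus strand), directly downstream of C2, the gene of the classical pathway's counterpart of factor B. The annotation also has a read-through gene, Gm20547, that spans both. Of the 2825 exon bases of Cfb in GENCODE vM21, 2246 (79.5%) also belong to Gm20547 and 579 to Cfb alone. The authors' gene counting leaves out a read that fits several genes, and Gm20547 itself has 0 counts over the 12 libraries. The exon counts, in which each exon of the joined Cfb, C2 and Gm20547 unit is divided into numbered bins, are not subject to that loss, so Cfb was also measured there, in the 11 libraries that have exon counts. The exon level was not analysed here for replicate 3 of control siRNA with LPS.

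In the 33 bins of Cfb, control siRNA with LPS gave 19095 and 1273 bin counts in its 2 libraries, against 68, 33 and 31 without LPS. SF3A1 siRNA gave 125, 116 and 61 without LPS and 2004, 271 and 565 with LPS. The group order was that of the gene counts, and again no library of one group reached into another group's range once scaled by depth, at 0.962 to 1.11, 74.7 to 358, 3.24 to 4.80 and 12.1 to 43.3 bin CPM. A read is counted in every bin that it touches, so these sums are not numbers of reads. The highest bin of replicate 1 of control siRNA with LPS, bin 30, held 2068 reads where the whole gene had a count of 911. Over the 11 libraries, 94.5% of the bin counts of Cfb lay in the 24 bins shared with Gm20547.

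**Figure D2:**
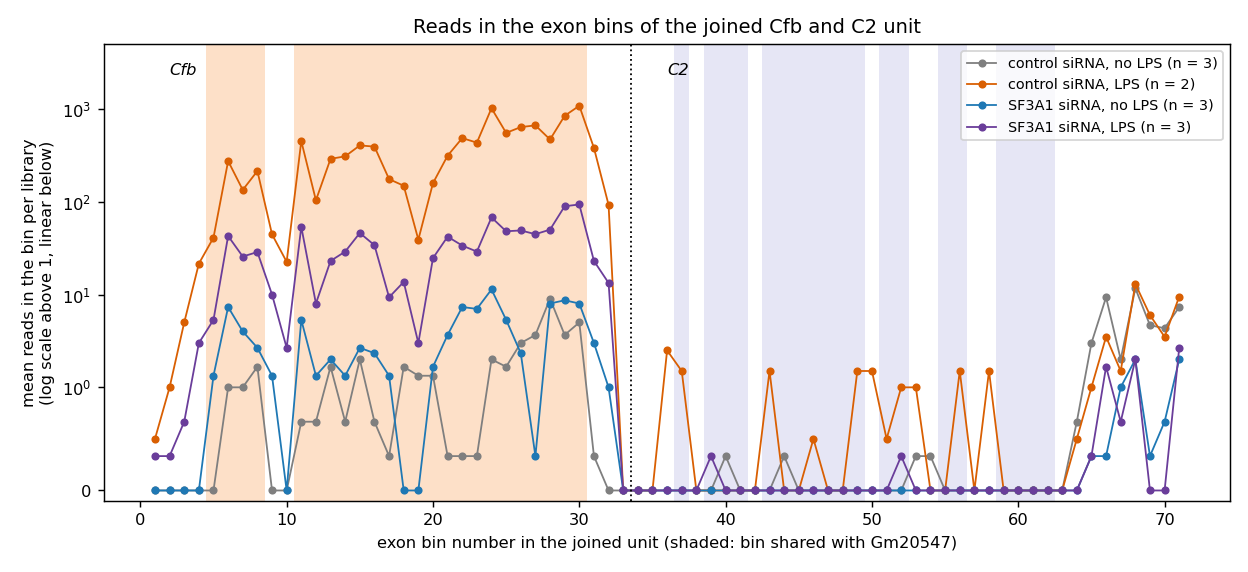
Mean reads per library in each of the 71 numbered exon bins of the joined unit, with Cfb in bins 1 to 33 and C2 in bins 34 to 71, on a vertical axis that is logarithmic above 1 and linear below. Lines are the 4 groups (3 libraries each, 2 for control siRNA with LPS), and shading marks bins that Gm20547 shares; the Cfb bins stand in the order control siRNA with LPS, SF3A1 siRNA with LPS and the 2 groups without LPS, and the bins of the C2 body are almost empty.

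On these bin counts, the quasi-likelihood fit gave a rise of Cfb by LPS with control siRNA of 7.67 on the log2 scale (SE 0.705, adjusted p = 1.27e-05), a 204-fold change. With SF3A1 siRNA the LPS rise was 2.73 (SE 0.559, adjusted p = 0.0108), or 6.65-fold. SF3A1 siRNA changed Cfb by 1.83 without LPS (SE 0.600, adjusted p = 0.0437) and by -3.10 with LPS (SE 0.572, adjusted p = 0.00285), and the interaction was -4.94 (SE 0.827, adjusted p = 0.0204). The gene counts gave the same directions, with 9.53 (SE 1.05, adjusted p = 2.33e-05), 2.88 (SE 0.787, adjusted p = 0.0436), 3.85 (SE 1.46, adjusted p = 0.0706), -2.81 (SE 0.619, adjusted p = 0.00440) and -6.65 (SE 1.54, adjusted p = 0.0462). At gene level Cfb had enough counts to be tested only through its libraries with LPS. Its gene-level LPS rises therefore end in the groups that admitted it to the test. Because control siRNA without LPS had a single count, the gene-level folds against it depend on how the fit treats that count. The ratio of the pooled gene counts of the 2 groups with control siRNA, 1111 against 1, was 1453 per unit of effective library size, with an exact 95% interval for counting error only of 260 to 57500. The SF3A1 ratio without LPS, from 13 counts against 1, was 19.8, with an interval of 2.97 to 841.

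Single libraries and the tool decided some of the gene-level results of Cfb. Leaving out single libraries gave 3.21 to 5.56 for the SF3A1 change without LPS, 2.41 to 3.43 for the LPS change under SF3A1 siRNA, -3.22 to -1.83 for the SF3A1 change with LPS and -8.34 to -5.66 for the interaction. The extremes of the first were without replicates 1 and 3 of control siRNA without LPS, and the third was smallest, at -1.83, without replicate 1 of control siRNA with LPS. The interaction was smallest without that same library and largest without replicate 3 of control siRNA without LPS. The SF3A1 change without LPS had an adjusted p of 0.209 with limma-voom, and of 0.123 to 0.190 without replicate 1 or 2 of control siRNA or replicate 2 or 3 of SF3A1 siRNA without LPS. The LPS change under SF3A1 siRNA had 0.203 with limma-voom, and 0.118 to 0.185 without replicate 1 or 2 of SF3A1 siRNA without LPS or replicate 1 of SF3A1 siRNA with LPS. The interaction had 0.153 with limma-voom, and 0.102 to 0.158 without the same 4 libraries as the SF3A1 change. On the bin counts, leaving out each library in turn moved the SF3A1 change without LPS between 1.64 and 1.94, and 1 of these 11 fits, without replicate 2 of SF3A1 siRNA without LPS, had an adjusted p over the threshold, at 0.120. The LPS change with control siRNA on the bin counts lay between 6.13 and 8.40, the SF3A1 change with LPS between -3.83 and -1.57, and the interaction between -5.66 and -3.40. The smallest of each of these 3 was without replicate 1 of control siRNA with LPS, where the SF3A1 change with LPS had an adjusted p of 0.0518, and the largest without replicate 2 of the same group. The LPS change under SF3A1 siRNA lay between 2.08 and 3.07, lowest without replicate 1 of SF3A1 siRNA with LPS.

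The neighbouring gene C2 was read mainly outside its coding body. Its 30 body bins held 35 bin counts over the 11 libraries, and its 8 upstream bins, at chr17:34893350-34898265, held 248. The single C2 bin with enough counts to be tested, bin 68 in this upstream part, had a log2 change of usage of -7.18 for LPS with control siRNA (adjusted p = 0.0639 in edgeR's diffSpliceDGE). Usage is relative to the joined unit, in which the bins of Cfb rose. The gene counts of C2 itself summed to 84 without LPS and 91 with it under control siRNA, and its log2 change of 0.40 did not pass the test (adjusted p = 0.579). In the annotation 161 of the 3872 exon bases of C2 overlap Zbtb12 on the opposite strand. No strand setting is stated, so the counts of C2 cannot be assigned to it with certainty.

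Properdin, the plasma protein that stabilises the alternative pathway convertase, was the most abundant complement gene of the 9 per kilobase in control cells. Cfp lies at chrX:20925454-20931555 (mm10, minus strand). Its libraries held 95.6, 142 and 120 CPM with control siRNA and no LPS, and 266, 245 and 196 CPM with LPS. With SF3A1 siRNA they held 161, 157 and 143 CPM without LPS and 160, 159 and 129 CPM with LPS. All 3 libraries with control siRNA and LPS stood above the other 9, and the 2 groups with SF3A1 siRNA overlapped.

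LPS raised Cfp with control siRNA by 0.98 on the log2 scale (SE 0.172, adjusted p = 0.000929), a 1.98-fold change. With SF3A1 siRNA the LPS change was -0.04 (SE 0.170, adjusted p = 0.957), with a 95% interval of -0.41 to 0.33. SF3A1 siRNA gave 0.37 without LPS (SE 0.170, adjusted p = 0.137) and lowered Cfp with LPS by a change of -0.66 (SE 0.171, adjusted p = 0.0113). The interaction was -1.02 (SE 0.241, adjusted p = 0.0501). It had an adjusted p of 0.101 to 0.122 without replicate 2 of control siRNA with LPS, replicate 1 or 2 of SF3A1 siRNA without LPS, or replicate 3 of SF3A1 siRNA with LPS, with values of -1.01 to -0.93. In the fit with a replicate block, the SF3A1 change of Cfp without LPS was again 0.37 and had an adjusted p of 0.0559, and without replicate 2 of control siRNA without LPS it was 0.59 (adjusted p = 0.0412).

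The 2 anaphylatoxin receptors, G protein-coupled receptors for C3a and C5a, responded in different ways. C3ar1, at chr6:122847138-122856161 (mm10, minus strand), held 18.2, 18.4 and 19.5 CPM with control siRNA and no LPS, and 113, 98.1 and 68.1 CPM with LPS. With SF3A1 siRNA it held 30.1, 43.9 and 41.1 CPM without LPS and 38.1, 36.2 and 33.6 CPM with LPS. The control groups lay on either side of the SF3A1 groups, which overlapped each other.

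LPS raised C3ar1 with control siRNA by 2.31 on the log2 scale (SE 0.199, adjusted p = 2.89e-06), a 4.96-fold change, and with SF3A1 siRNA the change was -0.09 (SE 0.191, adjusted p = 0.892), with a 95% interval of -0.51 to 0.32. SF3A1 siRNA raised C3ar1 without LPS by 1.03 (SE 0.193, adjusted p = 0.00186) and lowered it with LPS by a change of -1.37 (SE 0.193, adjusted p = 0.000249). The interaction was -2.40 (SE 0.273, adjusted p = 0.00166), and it passed under each of the alternatives tried.

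C5ar1, at chr7:16246743-16259540 (mm10, minus strand), held 51.4, 50.2 and 34.8 CPM with control siRNA and no LPS, and 118, 103 and 82.2 CPM with LPS. With SF3A1 siRNA it held 128, 111 and 133 CPM without LPS and 181, 300 and 272 CPM with LPS. The 3 libraries with both SF3A1 siRNA and LPS were the highest of the 12, and the groups with LPS alone and with SF3A1 siRNA alone overlapped.

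LPS raised C5ar1 by 1.15 on the log2 scale with control siRNA (SE 0.215, adjusted p = 0.00146) and by 1.01 with SF3A1 siRNA (SE 0.214, adjusted p = 0.0106). SF3A1 siRNA raised it by 1.45 without LPS (SE 0.217, adjusted p = 0.000446) and by 1.31 with LPS (SE 0.215, adjusted p = 0.000704). Each of these 4 changes was between 2.02-fold and 2.73-fold. The interaction was -0.14 (SE 0.300, adjusted p = 0.945), with a 95% interval of -0.79 to 0.51. Whether the interactions of the 2 receptors differ from each other was not tested. Per kilobase, C5ar1 stood at 97.7 ± 24.3 CPM (SD, n = 3) and C3ar1 at 8.35 ± 0.521 with SF3A1 siRNA and LPS, against 39.4 ± 7.02 and 21.6 ± 5.26 with control siRNA and LPS.

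**Figure D3:**
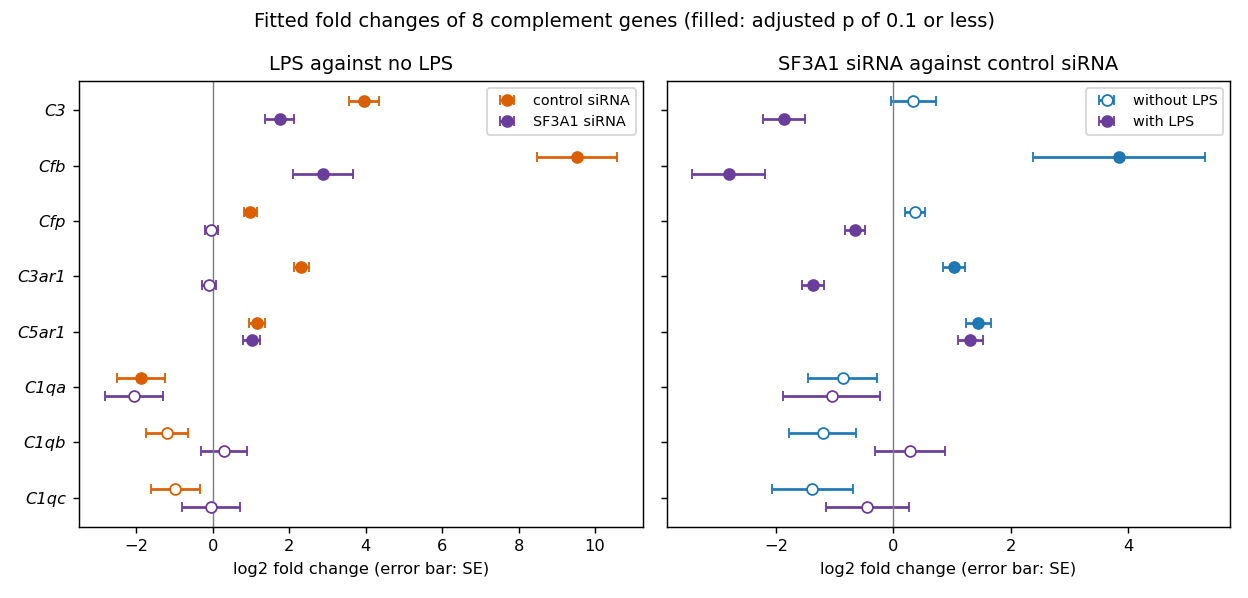
Fitted log2 fold changes of the 8 tested complement genes, with SE, for LPS against no LPS under each siRNA (left) and for SF3A1 against control siRNA without and with LPS (right). Filled points have an adjusted p of 0.1 or less. The 2 points of C3, Cfb, Cfp and C3ar1 lie apart in both panels, and those of C5ar1 lie together. Those of C1qb and C1qc, all open, also lie apart.

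The 3 chains of C1q, the recognition molecule of the classical pathway, are encoded side by side on chromosome 4, within chr4:136880129-136898803 (mm10, minus strand), and each C1q molecule holds equal numbers of them. They were read at low level. C1qa had counts of 23, 15 and 15 with control siRNA and no LPS, 6, 2 and 3 with LPS, 8, 5 and 6 with SF3A1 siRNA, and 0, 1 and 4 with SF3A1 siRNA and LPS. In CPM its group means were 0.612 ± 0.0751, 0.162 ± 0.00572, 0.339 ± 0.0933 and 0.0843 ± 0.0985. The 3 libraries of control siRNA without LPS stood above the other 9. C1qa had enough counts to be tested through these 3 libraries alone. Its changes against this group therefore start from the group that admitted it to the test.

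C1qa fell with LPS under control siRNA by a log2 change of -1.88 (SE 0.635, adjusted p = 0.0447). This fall had an adjusted p of 0.122 on the exon counts, and on leaving out replicate 2 or 3 of control siRNA without LPS, or any replicate of control siRNA with LPS, its adjusted p was between 0.102 and 0.123, with changes of -1.91 to -1.80. Under SF3A1 siRNA the LPS change was -2.07 (SE 0.763, adjusted p = 0.143), and with the replicate block it was -2.13, with an adjusted p of 0.0740. SF3A1 siRNA gave -0.87 without LPS (SE 0.586, adjusted p = 0.315) and -1.05 with LPS (SE 0.822, adjusted p = 0.375). Without replicate 3 of SF3A1 siRNA with LPS, which held 4 of that group's 5 counts, the last 2 changes with LPS were -3.67 (LPS under SF3A1 siRNA, adjusted p = 0.0356) and -2.66 (SF3A1 siRNA with LPS, adjusted p = 0.0667).

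C1qb had counts of 57, 11 and 10, then 18, 2 and 5, then 9, 3 and 7, then 12, 7 and 9 in the same order of groups. C1qc had counts of 60, 10 and 14, then 26, 3 and 4, then 3, 7 and 7, then 5, 8 and 7. Both were high in replicate 1 of control siRNA without LPS, at 1.31 and 1.38 CPM, against 0.426 to 0.596 CPM in the other 2 libraries of that group. Both had enough counts to be tested only with the help of libraries of control siRNA without LPS. Their changes against this group therefore start from a group that helped to admit them. Neither gene passed the test in any of the 5 comparisons. The LPS changes with control siRNA were -1.20 for C1qb (SE 0.557, adjusted p = 0.144) and -0.98 for C1qc (SE 0.644, adjusted p = 0.319), and the SF3A1 changes without LPS were -1.20 (SE 0.570, adjusted p = 0.144) and -1.38 (SE 0.686, adjusted p = 0.164). With the replicate block, C1qb had adjusted p values of 0.0759 and 0.0871 in these 2 comparisons. On the exon counts the SF3A1 change of C1qc without LPS was -1.60 (adjusted p = 0.0946). Over the fits that leave out single libraries the LPS change ranged from -1.74 to -0.44 for C1qb and from -1.83 to -0.29 for C1qc. The SF3A1 change without LPS ranged from -1.56 to -0.37 for C1qb and from -1.79 to -0.62 for C1qc. Both were smallest without replicate 1 of control siRNA without LPS, at -0.37 (adjusted p = 0.704) and -0.62 (adjusted p = 0.602).

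Summed over the 3 chains, C1q stood at 2.16 ± 0.910 CPM (SD, n = 3) with control siRNA and no LPS, 0.848 ± 0.409 with LPS, 1.02 ± 0.411 with SF3A1 siRNA and 0.815 ± 0.260 with both. The 3 libraries of the first group, at 1.61 to 3.21 CPM, stood above the others, whose highest was 1.49. Per base of exon, C1qa made up 38.7% ± 15.4 of the 3 chains, C1qb 37.8% ± 10.5 and C1qc 23.5% ± 6.0 in control cells without LPS. With SF3A1 siRNA and LPS the shares were 10.9% ± 12.4, 63.1% ± 15.6 and 26.0% ± 8.83, from 53 counts in all. Each chain's share was compared in 4 comparisons by exact two-sided permutation tests, 12 in all, in which 3 against 3 libraries cannot give a p under 0.1. Of these 12, 3 reached that limit: the share of C1qa for LPS under SF3A1 siRNA (10.9% against 41.1%), and that of C1qb for the same comparison (63.1% against 37.5%) and for SF3A1 siRNA with LPS (63.1% against 43.0%). Adjusted over the 12 exact tests, the p of each was 0.4.

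Serping1, the inhibitor of the C1r, C1s and MASP proteases, had 12 counts over the 12 libraries. With control siRNA there were 2 without LPS and 8 with it, and with SF3A1 siRNA 1 and 1. Replicate 3 of control siRNA with LPS held 6 of them, at 0.337 CPM, and 6 of the 12 libraries had 0. Serping1 was not among the genes tested. The ratio of its pooled counts per unit of effective library size was 5.23 for LPS with control siRNA (95% interval 1.04 to 50.6) and 0.122 for SF3A1 siRNA with LPS (0.00274 to 0.907). These intervals cover counting error only and not the spread between libraries, and both ratios rest on replicate 3 of control siRNA with LPS, without which that group has 2 counts.

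Counted over the 8 tested complement genes, LPS with control siRNA raised C3, Cfb, Cfp, C3ar1 and C5ar1 and lowered C1qa, which is 6 of 8, where 32.1% of all tested genes passed. C1qa was admitted to the test only by its counts in the group from which it fell. Cfb was admitted to this gene-level test only by its libraries with LPS, and its LPS rises under both siRNAs are counted here. The median log2 change of the 8 was 1.07, against -0.02 over all genes. SF3A1 siRNA without LPS raised Cfb, C3ar1 and C5ar1, 3 of 8, where 33.8% of all genes passed, so that the share of complement genes was close to the background. With the replicate block 5 passed, as Cfp joined the genes that rose and C1qb fell, where 47.1% of all genes passed with the block. C1qb was admitted to the test with the help of libraries of control siRNA without LPS, the group from which it fell. SF3A1 siRNA with LPS lowered C3, Cfb, Cfp and C3ar1 and raised C5ar1, 5 of 8, where 38.8% of all genes passed. LPS with SF3A1 siRNA raised C3, Cfb and C5ar1, 3 of 8, against 10.7% of all genes. The interaction was negative for C3, Cfb, Cfp and C3ar1, 4 of 8, against 3.47% of all genes. The comparisons share libraries with each other, so these counts are not independent.

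By direction, 13.8% of all genes rose and 18.3% fell with LPS under control siRNA, where 5 of the 8 complement genes rose and 1 fell. For SF3A1 siRNA without LPS the shares were 13.7% and 20.1%, and with LPS 18.4% and 20.4%. For LPS under SF3A1 siRNA they were 6.6% and 4.06%, and for the interaction 1.54% and 1.94%. Libraries of the groups compared did not overlap for 6 of the 8 with LPS under control siRNA, 5 above and 1 below, where this held for 40.2% of all genes, 17.2% above and 23% below. For SF3A1 siRNA without LPS it held for 4 above and 1 below, against 45.6% of all genes, 20.2% above and 25.4% below, the additional genes being Cfp (above) and C1qa (below). For SF3A1 siRNA with LPS it held for 1 above and 4 below, against 39.1%, 18% above and 21.1% below. For LPS under SF3A1 siRNA it held for 3 above and 1 below, C1qa, against 24.8%, 13.3% above and 11.5% below.

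In the libraries with 1 sequencing run, replicates 2 and 3, the same numbers of complement genes passed, 6, 3, 5, 3 and 4 in the order above, where 34.6%, 41.3%, 45.1%, 15.1% and 6.82% of all genes tested in these libraries passed. The LPS changes with control siRNA were 3.84 for C3, 7.77 for Cfb, 0.75 for Cfp, 2.13 for C3ar1 and 1.13 for C5ar1 in these libraries. The interactions were -2.02 for C3, -5.71 for Cfb, -0.81 for Cfp and -2.42 for C3ar1.

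Usage of single exons was tested in the 5 complement genes with enough counts, over 81 bins of their own: 36 of C3, 28 of Cfb, 12 of Cfp, 3 of C5ar1 and 2 of C3ar1. In diffSpliceDGE 0 of the 81 passed in each of the 4 comparisons, where 0.0801% of all 153624 bins passed for LPS under control siRNA, 0.0254% for LPS under SF3A1 siRNA, and 0.626% and 0.492% for SF3A1 siRNA in the absence and presence of LPS. In the same order, 0.462%, 0.104%, 6.16% and 5.03% of all genes or joined units tested for exon usage had at least 1 such bin, against 0 of these 5 in their own bins. For LPS under control siRNA the joined unit of Cfb did have 1, the C2 bin given above. At an unadjusted p under 0.05 there were 4, 2, 6 and 0 of the 81, against 1.97%, 1.29%, 3.39% and 3.99% of all bins, and limma-voom's test of bins also called 0 in each.

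The nearest was bin 27 of C3, an exon at chr17:57218798-57218940, after SF3A1 siRNA without LPS (log2 change 5.07, adjusted p = 0.138), which passed with the replicate block and without replicate 2 of control siRNA with LPS. It held 0 reads over the 3 libraries of control siRNA without LPS and 16 over the 3 of SF3A1 siRNA, which is 3.62% ± 3.03 of the bin counts of C3. At a one-sided 95% level, a count of 0 allows an expected count of up to 3. This covers counting error only and not the spread between libraries. Replicate 1 of SF3A1 siRNA held 14 of the 16 reads, at 7.11% of the C3 bin counts of that library, and replicates 2 and 3 held 1 read each, at 2.17% and 1.59%. With LPS the bin held 2.13% ± 0.336 (n = 2) and 2.10% ± 1.28 (n = 3) with control and SF3A1 siRNA. In C3ar1, the large downstream bin held 95.9% to 96.5% of bin counts in each group.

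Other genes with profiles like those of the complement genes were sought over the 12 libraries, among 9304 genes of at least 10 CPM on average, by the root mean square difference of centred log2 CPM. For C3 they were Uba7 (0.273), Trafd1 (0.338) and Oas3 (0.350), of which Uba7 encodes the activating enzyme of ISG15 and Oas3 an oligoadenylate synthetase. For C3ar1 they were Slfn10-ps (0.329), Selenow (0.361) and Psme2b (0.364). For C5ar1 they were Rhob (0.278), Jag1 (0.288) and Sqstm1 (0.314), and Sqstm1 averaged 380, 989, 949 and 2857 CPM without and with LPS, first under control and then under SF3A1 siRNA. For Cfb the nearest, Mmp9 (1.23), Fas (1.25) and Tnc (1.35), were much less alike, and Mmp9 had means of 0.280, 66.1, 2.76 and 60.4 CPM. For C1qa they were Rogdi (0.917), Abcc3 (0.923) and Phka1 (0.992), for C1qb Acsl3 (0.423), Sqle (0.485) and Rpusd1 (0.487), and for C1qc Zfp385a (0.633), Scd1 (0.644) and Rab3il1 (0.655). A small constant was added to each CPM before the log. Gene counts were used, and those of Cfb were 0, 0 and 1 with control siRNA and no LPS. The differences given for Cfb therefore depend in part on that constant.

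The rest of the complement system was followed through 48 further genes. Of these 46 had counts and 17 had enough to be tested. LPS with control siRNA raised 5 and lowered 3, SF3A1 siRNA without LPS raised 5 and lowered 4, SF3A1 siRNA with LPS raised 6 and lowered 3, and LPS with SF3A1 siRNA raised 1 and lowered 1. These are 8, 9, 9 and 2 of 17, where 32.1%, 33.8%, 38.8% and 10.7% of all genes passed. They include the falls of C2 with SF3A1 siRNA, and C2 was admitted to the test only by its libraries with control siRNA. The interaction passed for 0 of the 17 in edgeR's test, against 3.47% of all genes, with 5 at an unadjusted p under 0.05, and for 2 with DESeq2. With the replicate block 8, 14, 13, 5 and 5 passed in these 5 comparisons, where 43.9%, 47.1%, 50.9%, 20.8% and 11.7% of all genes did. The medians of the 17 log2 changes were 0.36, 0.45, -0.06, 0.12 and 0.00175, against -0.02, -0.02, -0.04, 0.01 and 0.04 over all genes.

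**Figure D4:**
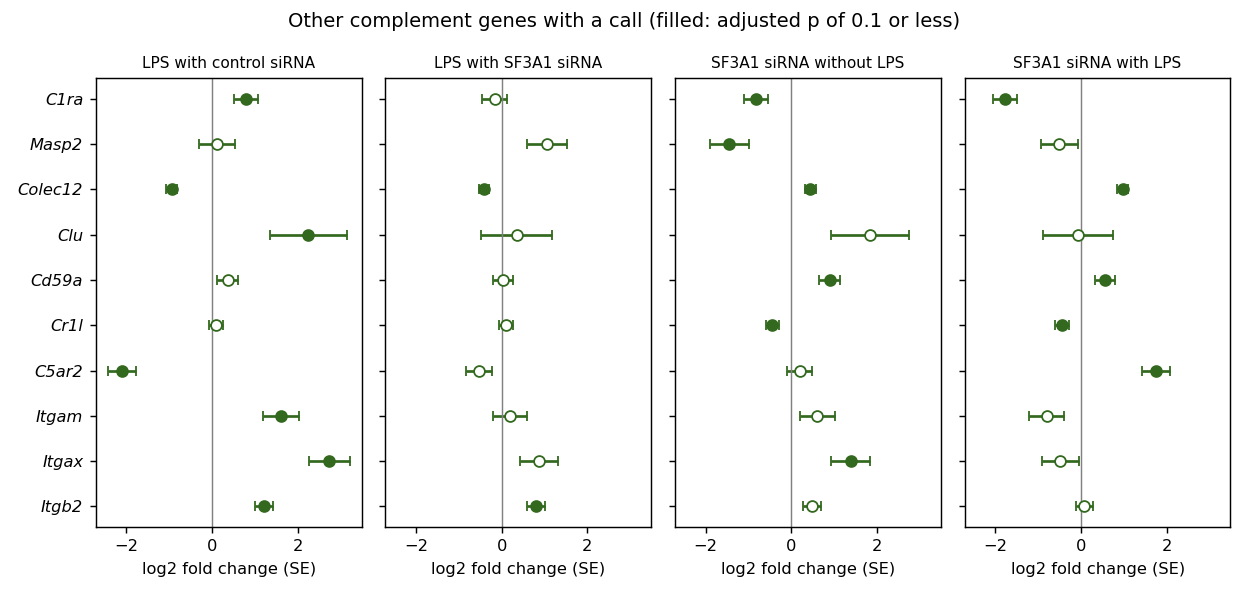
Log2 fold changes with SE of 10 further complement genes that passed in at least 1 comparison and averaged 1 CPM or more, in 4 comparisons on a common axis. Filled points have an adjusted p of 0.1 or less; C5ar2 and Colec12 fell with LPS under control siRNA and were higher with SF3A1 siRNA in cells with LPS.

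Among receptors and adhesion molecules, the subunits of the complement receptors CR3 and CR4, which bind iC3b, rose with LPS under control siRNA. Itgam, the alpha chain of CR3, rose from 96.4 ± 16.6 to 294 ± 223 CPM (log2 change 1.61, SE 0.412, adjusted p = 0.0110), and the change was 0.77 (adjusted p = 0.0343) without replicate 1 of control siRNA with LPS. Itgax, the alpha chain of CR4, rose from 8.02 ± 4.45 to 54.1 ± 12.6 CPM (2.74, SE 0.471, adjusted p = 0.000822, and 3.34 without replicate 1 of control siRNA without LPS), and their shared beta chain Itgb2 from 308 ± 57.3 to 711 ± 194 CPM (1.21, SE 0.208, adjusted p = 0.000826). Itgb2 also rose with LPS under SF3A1 siRNA (0.81, SE 0.206, adjusted p = 0.0315), and Itgax rose with SF3A1 siRNA alone (1.38, SE 0.455, adjusted p = 0.0395). The interactions of Itgam and Itgax passed only with the replicate block and some other alternatives, at -1.30 (adjusted p = 0.0409) and -1.87 (adjusted p = 0.00239) with the block. In the reference annotation Itgam shares 3450 of its 5024 exon bases with Gm49368 on the same strand. Gm49368 is not among the genes counted, so the counts of Itgam may include reads from it.

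C5ar2, the second receptor of C5a, went the other way to C5ar1 under LPS. It fell with control siRNA from 3.71 ± 0.508 to 0.839 ± 0.247 CPM (log2 change -2.10, SE 0.330, adjusted p = 0.000424), and it was higher with SF3A1 siRNA in cells with LPS, at 2.92 ± 1.07 CPM (1.76, SE 0.332, adjusted p = 0.00170). Its interaction had an adjusted p of 0.0372 with the replicate block, at 1.57. Cr1l, which encodes the rodent membrane regulator Crry, fell with SF3A1 siRNA by -0.44 both without LPS (SE 0.156, adjusted p = 0.0534) and with LPS (SE 0.156, adjusted p = 0.0487).

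Other regulators also moved. Cd59a, which blocks the membrane attack complex, rose with SF3A1 siRNA by 0.89 without LPS (SE 0.237, adjusted p = 0.0142) and by 0.57 with LPS (SE 0.236, adjusted p = 0.0868). Clu, clusterin, rose with LPS under control siRNA from 0.425 ± 0.255 to 2.01 ± 1.49 CPM (2.25, SE 0.905, adjusted p = 0.0899), and this did not pass with limma-voom (adjusted p = 0.288).

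Of recognition molecules and proteases, the scavenger collectin Colec12 was the most abundant, at 506 ± 52.2 CPM in control cells. It fell with LPS to 264 ± 21.5 CPM under control siRNA (log2 change -0.94, SE 0.126, adjusted p = 0.000129) and from 690 ± 42.1 to 518 ± 18.9 CPM under SF3A1 siRNA (-0.41, SE 0.125, adjusted p = 0.0690). SF3A1 siRNA raised it by 0.45 without LPS (SE 0.126, adjusted p = 0.0191) and by 0.97 with LPS (SE 0.127, adjusted p = 0.000153). C1ra, the protease C1r, fell with SF3A1 siRNA by a change of -0.82 without LPS (SE 0.281, adjusted p = 0.0470) and of -1.78 with LPS (SE 0.285, adjusted p = 0.000609), and it rose with LPS under control siRNA by 0.79 (SE 0.274, adjusted p = 0.0501). Masp2, a protease of the lectin pathway, fell with SF3A1 siRNA without LPS (-1.45, SE 0.457, adjusted p = 0.0329), but 1817 of its 3307 exon bases overlap Tardbp on the opposite strand, so that its counts cannot be assigned to it with certainty. C2 (lower), Cd93 and Colec11 (higher) also passed in the 2 comparisons of the siRNAs and averaged below 1 CPM over the 12 libraries. C2 had enough counts to be tested only through the libraries with control siRNA, the groups from which it fell. Whether Cd93 and Colec11 were likewise admitted only by the groups where they were higher was not examined. The counts of C2 are uncertain, as given above.

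Some of these calls were lost on leaving out 1 library. That of Cr1l without LPS was lost without replicate 2 or 3 of control siRNA or any replicate of SF3A1 siRNA without LPS, and that with LPS without replicate 3 of control siRNA or replicate 1 or 3 of SF3A1 siRNA with LPS, with changes of -0.47 to -0.29. That of Cd59a with LPS was lost without replicate 2 or 3 of control siRNA with LPS, replicate 1 or 2 of SF3A1 siRNA with LPS or replicate 3 of SF3A1 siRNA without LPS (0.43 to 0.62). The fall of Colec12 for LPS under SF3A1 siRNA was lost without any of the 6 libraries compared (-0.46 to -0.37). The rise of Clu was lost without any replicate of control siRNA without LPS, replicate 2 or 3 of control siRNA with LPS, or replicate 3 of either SF3A1 group (1.71 to 2.67).

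The LPS rise of C1ra under control siRNA was 0.67 to 1.03 over these fits, and it was lost without replicate 1 or 3 of control siRNA without LPS or replicate 3 of control siRNA with LPS. The fall of C1ra with SF3A1 siRNA without LPS ranged from -1.13 to -0.51, and was lost without replicate 2 of control siRNA (-0.51, adjusted p = 0.267) or replicate 1 or 3 of SF3A1 siRNA. Itgax with SF3A1 siRNA alone ranged from 0.71 (adjusted p = 0.243), without replicate 1 of that group, to 2.06 without replicate 1 of control siRNA without LPS, and was also lost without replicate 2 or 3 of the latter. Masp2 ranged from -2.17, without replicate 3 of SF3A1 siRNA without LPS, to -1.12, and was lost without replicate 1 or 2 of that group. Itgb2 for LPS under SF3A1 siRNA ranged from 0.70 to 0.95, and was lost without replicate 2 or 3 of SF3A1 siRNA without LPS.

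The replicate block added calls among the further genes described here. For SF3A1 siRNA without LPS it added Clu (1.71, adjusted p = 0.00216), Itgam (0.63, adjusted p = 0.0611) and Itgb2 (0.48, adjusted p = 0.00427), which were higher, and Calr, the chaperone calreticulin (-0.41, adjusted p = 0.00623), which was lower. For SF3A1 siRNA with LPS it added Itgam (-0.67, adjusted p = 0.0419), Itgax (-0.52, adjusted p = 0.0513) and Calr (-0.28, adjusted p = 0.0417), which were lower, and C1qbp (0.26, adjusted p = 0.0938). For LPS under SF3A1 siRNA it added Masp2 (1.09, adjusted p = 0.0630), Itgax (0.99, adjusted p = 0.00544) and Cd93 (1.35, adjusted p = 0.0415). In the interaction it also added Colec12 (0.53, adjusted p = 0.0532) and Clu (-1.64, adjusted p = 0.0545). Calr and C1qbp, which passed in no comparison without the block, are named after their values were seen.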

How the data were processed

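Polyadenylated RNA of 12 RAW264.7 libraries (3 in each of 4 groups, grouped by the sample labels) was sequenced single end on an Ion Proton. Per the authors, reads were mapped to mm10 with GSNAP and uniquely mapping reads were counted on an Ensembl annotation with htseq-count. The deposited values are raw counts per gene and, for 11 libraries, raw counts per exon bin made by the authors with the DEXSeq counting script. No source states a strand setting. Reads in no gene (17.8 to 27.2% of a library) and ambiguous reads (0.431 to 0.530%) were left out, and 36345 of 38215 gene IDs had a symbol in the reference.

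Counts were fitted in R 4.3.3 with edgeR 4.0.16 (quasi-likelihood, TMM, filterByExpr, all 12 libraries) and tested in 5 comparisons: LPS under each siRNA, SF3A1 siRNA without and with LPS, and the interaction. P-values were adjusted over the 14983 genes by the Benjamini-Hochberg method at a false discovery rate of 0.1. Standard errors were derived from the fold change and the F statistic, and 95% intervals use the fit's degrees of freedom. Exon usage was tested with diffSpliceDGE in units with at least 2 bins. limma 3.58.1 and DESeq2 1.42.0 gave alternatives, and shares and permutation tests used Python 3.11.15 with scipy 1.17.1. Bin positions and overlaps come from GENCODE vM21, whose bins matched in number for 8 of the 9 genes and not for C5ar1. The steps were tested on simulated data. Binomial and count intervals cover counting error only.

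The complement genes and the lists were chosen with earlier results of these data known. Named were all 9 genes, the further complement genes that passed in at least 1 comparison and averaged 1 CPM or more (1 of which is counted but not reported here), and the 3 genes of 10 CPM or more most like each tested gene of the 9 whose group means differed by 2-fold or more (Serping1, not tested, was left out here). Same-numbered replicates deviated together: the correlation of their deviations from the group means was 0.143 to 0.600 (median 0.356) for the 18 pairs with the same number and -0.523 to 0.345 for the 36 others, so the replicate block was fitted as an alternative and is given where it changed a call.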

Additional observations from a re-analysis of the deposited data

Results flagged for a closer look

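The LPS effect differed between the 2 siRNAs, by the test of the interaction, for 4 complement genes. The log2 differences (SF3A1 siRNA minus control siRNA) were -2.20 for C3, -6.65 for Cfb, -1.02 for Cfp and -2.40 for C3ar1. In C3 and Cfb the LPS effect was smaller with SF3A1 siRNA and still passed the test, and in Cfp and C3ar1 it did not pass. The difference for Cfb was -4.94 on the exon bin counts, which hold the reads that the gene counts leave out. Groups of 3 libraries were not tested for outlying samples. The replicate 1 libraries, which had 2 runs, held the highest Cfb and C3 levels of both groups with LPS, and the part of the run number in the differences was read only within the single-run libraries, as given above.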

How the results depend on the processing

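Over the alternatives tried for the fold changes of the complement genes, 806 values kept their direction and their side of the threshold, 32 no longer passed, 16 newly passed and 14 changed sign. The replicate block brought the complement genes that passed for SF3A1 siRNA without LPS to 5, and on summed exon bins, an alternative chosen after seeing the data like the leave-one-out fits of the Cfb bins, to 6. It brought the further complement genes to 14 there, to 5 for LPS under SF3A1 siRNA and to 5 in the interaction, and gave 1 gene with a called exon bin for SF3A1 siRNA without LPS (C3). The block changed no other call of the complement genes than those given in the report. In the interaction, limma-voom and an adjusted p of 0.05 each left 2 of the complement genes, and the further genes numbered 2 with DESeq2, 2 with no filter and 4 in the single-run libraries. For LPS under SF3A1 siRNA the further genes numbered 1 with only the 2 groups fitted and 1 at an adjusted p of 0.05. The cause was not tested.

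Leaving out single libraries gave 5 to 6, 2 to 3, 5 to 6, 2 to 4 and 2 to 4 complement genes in the 5 comparisons, 0 to 1 genes with a called exon bin for SF3A1 siRNA without LPS, and 6 to 8, 6 to 13, 8 to 9, 0 to 3 and 0 to 1 further genes. Changes of sign were seen in changes that had not passed: C1qc for LPS under SF3A1 siRNA with limma-voom (0.054), and the interactions of C1qa (0.58) and C5ar1 (0.10) in single-run libraries. Without single libraries, C3 for SF3A1 siRNA without LPS ranged from -0.029 to 0.60 and C1qc for SF3A1 siRNA with LPS from -0.82 to 0.40. For LPS under SF3A1 siRNA the ranges were -0.10 to 0.055 for Cfp, -0.023 to 0.65 for C1qb, -0.55 to 0.38 for C1qc and -0.24 to 0.017 for C3ar1, and the interactions ranged from -1.79 to 0.58 for C1qa and -0.30 to 0.048 for C5ar1.

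With raw counts in place of counts per length, the share of C1qc was 35.5% and 42.7% with control siRNA without and with LPS and 38.1% with SF3A1 siRNA and LPS, that of C1qb 35.4% with control siRNA and LPS, and that of C1qa 34.4% with SF3A1 siRNA. With the longest coding transcript, C1qc had 32.8%, 40.0% and 35.7%, and C1qa 36.5%. The low counts of C1q, Serping1 and, without LPS, Cfb limit what could be detected.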
